A study of Sus scrofa with 3 samples.

Results

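The immediate early genes are switched on within minutes of a stimulus, without the need for new protein, and their transcripts are short-lived. FOS and JUN proteins pair to form the AP-1 transcription factor, EGR1 binds GC-rich promoter sites, and feedback genes such as DUSP1 switch the upstream MAP kinases off again. In tissue taken from an animal, their transcripts are also known to respond to anaesthesia, surgery and the time until freezing. The group examined here was the named set of 10 genes FOS, FOSB, JUN, JUNB, EGR1, ATF3, IER2, IER3, DUSP1 and MYC, as far as they were listed as mRNA. Of these, 9 were found among the 22826 mRNA genes and the 34570 genes of all types. JUN was listed as C-JUN, which is its RefSeq synonym, and ATF3 as LOC100738612, which carries its RefSeq gene ID. FOSB was not found by symbol, synonym or gene ID and was not analysed here.

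The data were RNA-Seq values of visceral adipose tissue, taken from the retroperitoneal depot of male Chinese Wuzhishan miniature pigs that were 6 to 7 months old when obtained. All pigs received a standard diet for 7 weeks and then a diet rich in fat and cholesterol for 12 weeks. Intact male pigs (IM) had skin incisions only, castrated male pigs (CM) were gonadectomized, and castrated pigs with testosterone replacement (CMT) also received 10 mg/kg testosterone propionate in corn oil each week. No injection of oil alone is described for IM and CM pigs. RNA of 4 to 6 pigs per group, by the labels, was pooled in equal amounts into 1 library per group (the study's methods give 4), so no difference below has a replicate check and no test of a condition was possible. Levels are given in UQRPKM, which is proportional to the reads per base of gene divided by the upper-quartile count of that library. The reads behind each value were recovered from the values, and they came to 14844063 (IM), 13582288 (CM) and 13449107 (CMT) on mRNA genes. Values given 3 in a row are those of IM, CM and CMT, in that order. All 95% intervals come from these reads and cover counting error only, since amplified reads are not independent molecules.

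The libraries carried the markers of fat, and they also differed in other tissue. ADIPOQ, the adipocyte hormone adiponectin, stood at 74928, 69193 and 63873 UQRPKM. The summed level of 10 skeletal muscle markers was 81.8, 65.0 and 5812 UQRPKM, with ACTA1, the skeletal muscle actin, at 49.8, 39.8 and 3589 UQRPKM and MYLPF, a myosin light chain, at 13.3, 11.8 and 645. The liver transcript ALB had 10, 10612 and 15 reads, respectively. These differences are given with the results below.

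In CMT pigs, 7 of the immediate early genes stood at 35.4% to 47.2% of the IM level, MYC stood at 108% and IER3 lay between. A gene was called higher or lower if the libraries differed by a fold of 1.5 or more and both held 1 UQRPKM or above, without a test. By this rule 7 of the 9 genes were called lower and 0 higher in CMT against IM, beside 11.9% lower and 8.81% higher among all 14151 mRNA genes at that level. The median log2 ratio of the 9 genes was -1.14, beside -0.08 for all genes. At a fold of 2 the count was again 7 lower and 0 higher, beside 4.25% and 3.96% of all genes, and among the 9237 genes with at least 189 reads over both libraries together, the fewest of any member, 1.02% were lower by that fold. The count at a fold of 2 was 5 to 7 over the other scalings and pseudocounts tried, and JUNB, DUSP1 and ATF3 had ratios of -1.08 to -1.14, close to that limit.

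CMT against CM showed 6 of the 9 genes called lower and 0 higher, beside 9.97% and 9.53% of 14098 genes, with a median log2 ratio of -0.84 beside -0.02 for all genes. At a fold of 2 only FOS and EGR1 remained, beside 4.46% lower and 4.23% higher among all genes. CM against IM showed less. Here 2 of the 9 genes, JUN and ATF3, were called lower and 0 higher, beside 10.4% and 8.38% of 14123 genes, and the median was -0.20 beside -0.06. At a fold of 2 only ATF3 was lower, beside 4.21% lower and 3.86% higher among all genes. The 3 comparisons share libraries, so the CMT against IM ratio of a gene is the sum of its other 2 log2 ratios and adds no separate evidence.

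**Figure D1:**
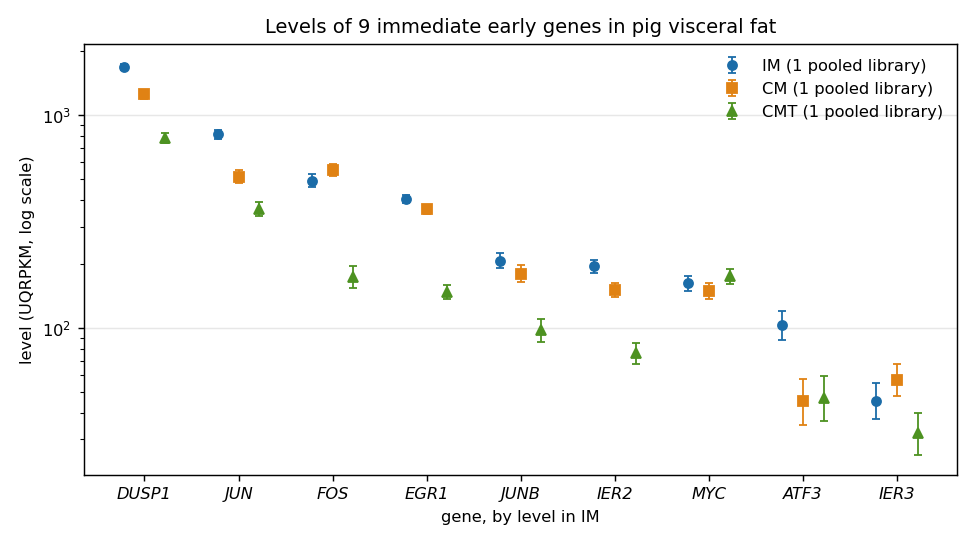
Level of each of the 9 immediate early genes in UQRPKM (log scale) in the IM, CM and CMT libraries, 1 pooled library each, with exact Poisson 95% intervals from the reads as bars. The CMT value is the lowest of the 3 for 7 genes, and the exceptions are MYC, where it is the highest, and ATF3, where CM is the lowest.

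Among the AP-1 subunits, FOS cannot pair with itself and binds DNA with a JUN partner. It stood at 493, 552 and 174 UQRPKM (840, 896 and 291 reads). IM and CM thus lay close together, and CMT was at 35.4% of IM and 31.6% of CM. The log2 ratio was -1.66 (95% interval -1.86 to -1.47) in CMT against CM, the most negative value of any member in that comparison, and 0.16 (0.03 to 0.30) in CM against IM. Of all genes, 1.54% had a lower ratio than FOS in CMT against CM.

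JUN, which can pair with itself or with FOS, followed a stepped course instead. It stood at 814, 515 and 363 UQRPKM (1469, 886 and 642 reads). The log2 ratio was -0.66 (-0.78 to -0.54) in CM against IM and -0.50 (-0.65 to -0.36) in CMT against CM. These intervals overlap, so which step was larger cannot be told from them. In CMT against IM it was -1.16 (-1.30 to -1.03). The ratio of JUN to FOS was 1.65, 0.933 and 2.08, which shows that the 2 subunits did not keep a fixed proportion over the libraries.

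JUNB, a weaker activator of the JUN family, stood at 207, 180 and 97.8 UQRPKM (579, 480 and 268 reads). It had the order of JUN, with a log2 ratio of -0.20 (-0.38 to -0.02) in CM against IM and -0.88 (-1.10 to -0.66) in CMT against CM. ATF3, a stress-induced CREB/ATF protein that can dimerize with JUN proteins and often represses, was different from the other genes. It stood at 103, 45.6 and 47.0 UQRPKM (157, 66 and 70 reads). Its log2 ratio was -1.18 (-1.62 to -0.76) in CM against IM, the most negative of any member there, and 0.04 (-0.46 to 0.55) in CMT against CM, where the reads were too few to show a difference within that interval.

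EGR1, a zinc finger factor induced through SRF and its ELK cofactors, stood at 406, 363 and 148 UQRPKM (1913, 1630 and 682 reads). As with FOS, the step lay at CMT, with a log2 ratio of -1.30 (-1.43 to -1.17) in CMT against CM and -0.16 (-0.26 to -0.07) in CM against IM. MYC, a transcription factor that pairs with MAX and is also kept up in dividing cells, had 163, 150 and 175 UQRPKM (597, 524 and 630 reads). Its log2 ratio was 0.11 in CMT against IM and -0.12 in CM against IM, and both intervals (-0.06 to 0.27 and -0.29 to 0.05) included 0. In CMT against CM it was 0.23 (0.06 to 0.40), which left out 0. Scaled by total mRNA reads, the CMT against IM ratio of MYC was 0.22, and its interval, moved up by the same 0.11, left out 0 as well. MYC stood at 0.401 of the EGR1 level in IM and at 1.19 of it in CMT.

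**Figure D2:**
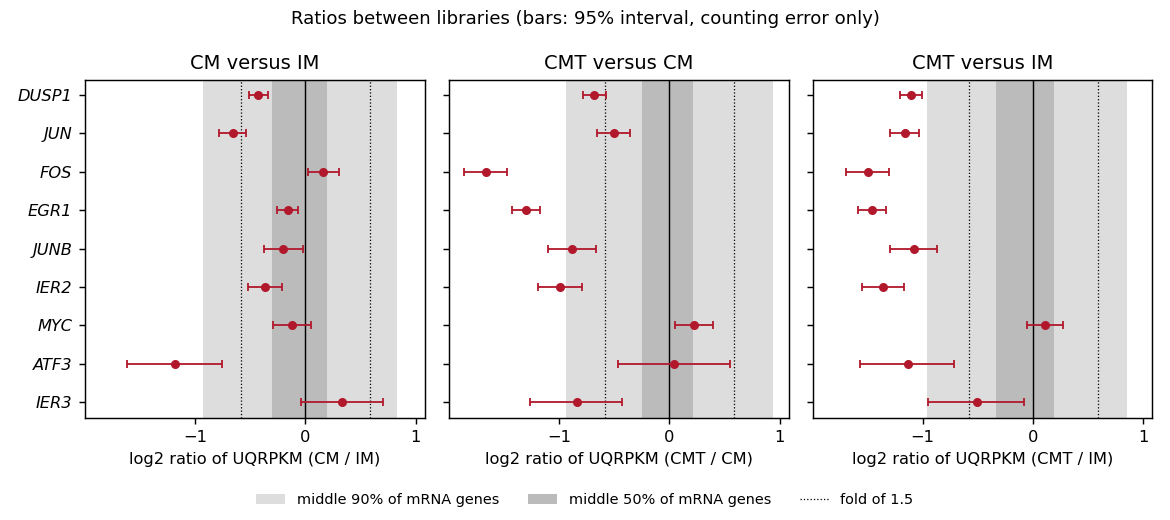
Log2 ratio of UQRPKM of each member (points) in the 3 comparisons, with exact 95% intervals for counting error (bars), the middle 50% and 90% of all mRNA genes at 1 UQRPKM or more (grey bands) and the fold of 1.5 (dotted lines). In CMT against IM the points of 7 genes lie between -1.50 and -1.08, to the left of the 90% band, while IER3 and MYC lie inside it.

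IER2, a nuclear protein of the early growth response, stood at 195, 151 and 76.0 UQRPKM (827, 611 and 316 reads). Both steps pointed down, with log2 ratios of -0.37 (-0.52 to -0.21) in CM against IM and -0.99 (-1.19 to -0.79) in CMT against CM. IER3, an early gene linked to cell survival, was the lowest of the set in IM and CMT but not in CM, at 45.7, 57.3 and 32.0 UQRPKM (112, 134 and 77 reads). It was called lower in CMT against CM, at -0.84 (-1.26 to -0.42), but not in CMT against IM, at -0.51 (-0.95 to -0.08), and its interval in CM against IM included 0. DUSP1, the phosphatase that removes the activating phosphates of MAP kinases and is also a known glucocorticoid target, was the highest. It had 1686, 1253 and 782 UQRPKM (2773, 1965 and 1261 reads), with log2 ratios of -0.43 (-0.51 to -0.34), -0.68 (-0.78 to -0.58) and -1.11 (-1.20 to -1.01) for CM to IM, CMT to CM and CMT to IM.

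The courses of the members thus were not all alike. In 5 genes (JUN, JUNB, EGR1, IER2 and DUSP1) the order was IM, then CM, then CMT, which 23.5% of the 13858 genes at 1 UQRPKM or more in every library also had. FOS and IER3 were highest in CM and lowest in CMT, ATF3 had the order IM, CMT, CM, and MYC the order CMT, IM, CM. Some of these orders rest on steps within counting error. The intervals of IER3 in CM against IM, of ATF3 in CMT against CM and of MYC in both comparisons with IM included 0. CMT was the lowest library for 7 of 9 members and for 39.0% of all genes. Summed over the 9 genes, the level was 4112, 3267 and 1895 UQRPKM, and DUSP1 and JUN contributed most of it. In CPM computed on the mRNA reads, the set stood at 624, 530 and 315.

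Levels between genes were compared per length of gene. In IM the order was DUSP1, JUN, FOS, EGR1, JUNB, IER2, MYC, ATF3 and IER3, and the neighbours JUNB and IER2 had overlapping intervals. In CM the overlapping neighbours were FOS and JUN, IER2 and MYC, and IER3 and ATF3. MYC was at place 7 in IM and CM and at place 3 in CMT, where its interval overlapped that of FOS, that of FOS overlapped that of EGR1, and that of ATF3 overlapped that of IER3. The recovered gene lengths ran from 1020 bases for ATF3 to 3165 for EGR1. Those of FOS (1143), DUSP1 (1104), ATF3 and EGR1 were multiples of 3, which by itself does not show that only coding sequence was counted. Whether reads in the untranslated parts of the short FOS and DUSP1 genes were counted was not tested. Comparisons of levels between genes are thus less certain than comparisons between libraries.

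Other genes of the early response were examined in 4 lists. Together they held 77 genes found as mRNA. In CMT against IM, 24 of the 70 genes at 1 UQRPKM or more were called lower (34.3%) and 7 (10%) higher. Of all genes, 11.9% were lower and 8.81% higher, and the median log2 ratio of the listed genes was -0.25. In CMT against CM, 12 of 69 (17.4%) were lower and 7 (10.1%) higher, beside 9.97% and 9.53%, with a median of -0.11. In CM against IM, 6 of 70 (8.57%) were lower and 4 (5.71%) higher, beside 10.4% and 8.38%, with a median of -0.16. The lower calls were therefore more frequent than the background in the comparisons with CMT, but the median was much nearer to 0 than that of the members.

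Among the EGR, NR4A and KLF factors, 6 of 14 (42.9%) were called lower and 3 (21.4%) higher in CMT against IM, beside 11.9% and 8.81% of all genes. Of the 3 higher, MYCN with 6 and 9 reads and NAB2 had intervals that included 0. In CM against IM, 4 of 14 (28.6%) were higher and 0 lower, beside 8.38% and 10.4%. Among those 4, the intervals of MYCN and NAB2 again included 0. In CMT against CM, 4 (28.6%) were lower and 1 (7.14%) higher, beside 9.97% and 9.53%. EGR2 and EGR3, the nearest relatives of EGR1, had the most negative ratios. EGR2 had 47.0, 37.6 and 12.8 UQRPKM (105, 80 and 28 reads). EGR3 had 67, 97 and 15 reads, with a log2 ratio of -2.73 (-3.62 to -1.94) in CMT against CM. KLF4 had 416, 306 and 203 UQRPKM, and KLF2, a flow-responsive factor of endothelial cells and the highest of the list, had 1747, 1314 and 1127. KLF9, a target of glucocorticoid and thyroid hormone receptors, went the other way at 418, 393 and 633 UQRPKM. NAB2, a corepressor of EGR1, had only 17, 30 and 29 reads.

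Of the other early genes for signals and growth control, 12 of 26 (46.2%) were called lower and 3 (11.5%) higher in CMT against IM, beside the same 11.9% and 8.81%. CYR61, a secreted matrix-associated protein, had 533, 401 and 242 UQRPKM, and its course lay among the nearest to that of the members. IER5, a relative of IER2, had 120, 106 and 44 reads and a log2 ratio of -1.42 in CMT against IM. PLK3, a stress-responsive kinase, had 91, 83 and 45 reads, and HBEGF, a ligand of the EGF receptor, 30, 24 and 11. THBS1, a secreted matricellular protein, was higher in CMT, at 257, 195 and 469 UQRPKM. The cytokine LIF had 29, 8 and 18 reads, so that CM was its lowest library. RHOB, a small GTPase and the highest gene of the list, had 3101, 2147 and 2312 UQRPKM.

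The other AP-1 and CREB/ATF subunits had 3 of 16 (18.8%) called lower and 0 higher in CMT against IM, beside 11.9% and 8.81% of all genes. In CM against IM they also had 3 lower and 0 higher, beside 10.4% and 8.38%. In CMT against CM, 2 (12.5%) were lower and 2 (12.5%) higher, beside 9.97% and 9.53%. MAFF, a small MAF protein, had 173, 105 and 107 UQRPKM, which is the course of ATF3. MAFK had 79.7, 78.7 and 50.7 UQRPKM and BATF2 39.8, 38.8 and 23.9, with the step at CMT. BATF, which pairs with JUN proteins in lymphocytes, had 64, 30 and 47 reads. ATF4, the translationally controlled factor of the amino acid response and the highest of the list, had 4181, 4184 and 3613 UQRPKM.

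In the list of RNA-binding and NF-kB feedback genes, 3 of 14 (21.4%) were called lower and 1 (7.14%) higher in CMT against IM, beside 11.9% and 8.81% of all genes. CEBPB had 108, 69.7 and 59.9 UQRPKM, whereas CEBPD, a C/EBP factor of the acute phase, had 568, 591 and 909. NFKBIA, the inhibitor of NF-kB and the highest of the list, had 1574, 1276 and 1545. ZFP36, which binds AU-rich elements and speeds the decay of early transcripts, was named after its values were seen. It had 316, 114 and 2 reads, or 125, 47.5 and 0.810 UQRPKM, so that it lay under the minimum for a call in both comparisons with CMT. The log2 ratio was -7.27 in CMT against IM, with an interval from -10.33 to -5.41 for counting error alone. How reads of ZFP36 were mapped and counted in each library is not given in the sources used here, and whether so low a value in 1 pool reflects that step was not tested. Of 9109 mRNA genes with at least 100 reads in IM, only ZFP36, KRT1 and LOC100737949 had 2 reads or fewer in CMT. Its relatives ZFP36L1 and ZFP36L2 had log2 ratios of -0.25 and 0.08 in CMT against IM.

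**Figure D3:**
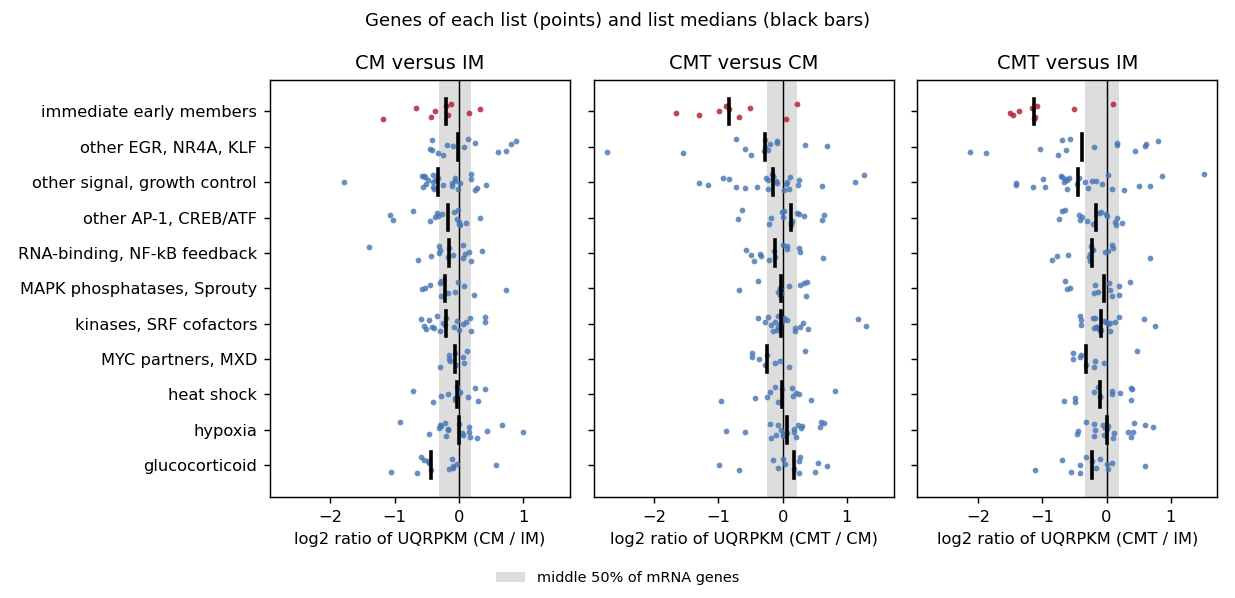
Log2 ratios of UQRPKM of single genes (points) and list medians (black bars) for the members and 10 other lists in the 3 comparisons, with the middle 50% of all mRNA genes in grey, for genes at 1 UQRPKM or more in both libraries. In CMT against IM the median of the members is -1.14, and the next lowest are -0.44 for signal and growth control genes and -0.39 for EGR, NR4A and KLF factors.

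The genes upstream of the early response and the partners of its products were read against the same 11.9% lower and 8.81% higher of all genes in CMT against IM. Among MAP kinases, their activators and the SRF cofactors, 0 of 20 were called lower and 1 (5%) higher, with a median of -0.09. MAP2K2, the highest of them, had 757, 719 and 683 UQRPKM. MAP2K6 had 26, 17 and 43 reads and MKL2, an actin-regulated SRF cofactor, 30, 19 and 44. Of the other MAP kinase phosphatases and Sprouty genes, 2 of 12 (16.7%) were lower and 0 higher, with a median of -0.04. DUSP4, a nuclear phosphatase, had 69.4, 116 and 71.7 UQRPKM and was thus highest in CM, and SPRY2, a feedback inhibitor of receptor kinases, had 272, 270 and 351. None of the 9 MYC partners and MXD genes at that level was called in any comparison, and MLX, the highest, had 540, 572 and 526 UQRPKM. Their median was -0.32 in CMT against IM.

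Lists that answer to handling, temperature, oxygen and stress hormones were set beside the members. The study states that pigs were bled under pentobarbital anaesthesia, and that the fat was weighed and then frozen in liquid nitrogen. It gives a common lower limit of RNA integrity for all samples, and no values by group. Times between death and freezing, the order of sampling and handling by group are not given in the sources used here. Each group is 1 pool, so handling and treatment cannot be told apart in these data. Of the heat shock genes, 0 of 13 were called higher and 1 (7.69%) lower in CMT against IM, beside 8.81% and 11.9% of all genes, with a median of -0.10. HSP90AA1 had 9437, 8364 and 9965 UQRPKM, HSPB1 982, 596 and 1044, and CRYAB 2737, 3353 and 1726. HSP70 and HSP70.2, genes of the heat-inducible kind, and HSPA1L were listed at 0 in every library and give no information here.

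The hypoxia list had 2 of 19 genes (10.5%) called higher and 0 lower in CMT against IM, with a median of 0.01. Of all genes, 8.81% were higher and 11.9% lower there. VEGFA, the vascular growth factor, had 1083, 576 and 867 UQRPKM and was lowest in CM. PDK1, which limits pyruvate oxidation, had 183, 291 and 277 UQRPKM, BNIP3, the highest of the list, 3398, 2948 and 2961, and EGLN3 only 10, 19 and 13 reads. The glucocorticoid list also holds DUSP1, PER1, SGK1 and KLF9 of the other lists. In CMT against IM it had 2 of 13 (15.4%) called lower and 1 (7.69%) higher, beside 11.9% and 8.81%, with a median of -0.22. In CM against IM its median was -0.43, beside -0.20 for the members and -0.06 for all genes. There 12 of its 13 genes lay below 0, beside 56.8% of all genes. Of the 13, 2 (15.4%) were called lower and 0 higher, beside 10.4% and 8.38%. The summed level of the list in CM was 0.737 of that in IM. In CMT against CM its median was 0.18, beside -0.84 for the members and -0.02 for all genes. There 4 of its 13 genes lay below 0, beside 52.7% of all genes. Of the 13, 2 (15.4%) were called lower, DUSP1 among them, and 1 (7.69%) higher, beside 9.97% and 9.53%. TSC22D3 and FKBP5, classical targets of the receptor named after their values were seen, had 1843, 1707 and 1710 UQRPKM and 301, 283 and 269 UQRPKM, respectively. ANGPTL4, the highest of the list, had 5109, 3239 and 3853. In CMT against IM the medians of these 3 lists were -0.10, 0.01 and -0.22, beside -1.14 for the members. The part of handling in the low values of CMT was not tested.

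Markers of other cells moved with the members in part. The 3 erythroid markers summed to 4628, 4281 and 2385 UQRPKM, and HBB, a chain of haemoglobin, had 4534, 4193 and 2331. ALAS2, the erythroid enzyme of haem synthesis, had 56.2, 45.4 and 32.5. The 5 platelet markers summed to 34.3, 328 and 78.5 UQRPKM, and PPBP, a platelet chemokine, was listed at 0 in IM and had 129 and 26 reads in CM and CMT. PPBP made up most of that sum in CM and CMT, whereas ITGA2B, the platelet integrin, stood at 33.5, 25.6 and 18.5 UQRPKM, in the order of 5 members, and was called lower in CMT against IM. PF4 and GP9 had 0 or 1 read in each library. The 5 neutrophil markers summed to 504, 4883 and 964 UQRPKM. Their sum was carried by S100 genes, with S100A12 at 323, 2449 and 537 and S100A8 at 90.4, 1272 and 193 UQRPKM, while the receptor CXCR2 had 25, 22 and 21 reads and CSF3R was at 0 in every library. The 11 liver markers were also highest in CM, at 2557, 9435 and 1737, of which APOA1 held 2539, 2339 and 1714. The 7 mesothelial markers summed to 153, 267 and 689 UQRPKM, and KRT8 and KRT19 were highest in CMT, as were the skeletal muscle markers above. Of these 10 muscle markers, 2 were at 0 in every library. Of the 7 mesothelial markers, 1 was also at 0 in every library. Among the other 6, 5 (83.3%) were called higher and 1 (16.7%) lower in CMT against IM, beside 8.81% and 11.9% of all genes. In CMT against CM, 5 were again higher and 1 lower, beside 9.53% and 9.97%.

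The sums of the other marker lists differed less between IM and CMT, while single genes within some of them went both ways. The endothelial markers, led by PECAM1 and CLDN5, summed to 8663, 7717 and 8315 UQRPKM, and the fibroblast and progenitor markers, led by COL3A1 and DCN, to 62244, 62518 and 60599. Of the 6 fibroblast and progenitor markers, 1 (16.7%) was called higher and 1 (16.7%) lower in CMT against IM, beside 8.81% and 11.9% of all genes. These were PDGFRA, at 288, 306 and 434 UQRPKM, and COL1A1, at 4453, 2235 and 2580. The smooth muscle markers, led by ACTA2 and TAGLN, summed to 5449, 4087 and 4345 and the macrophage markers, led by CD14 and CSF1R, to 1045, 1157 and 990. Of 4 smooth muscle markers at 1 UQRPKM or more, 1 (25%) was called higher and 1 (25%) lower in CMT against IM, beside 8.81% and 11.9%. In CM against IM, 2 (50%) were lower and 0 higher, beside 10.4% and 8.38%. Of 6 macrophage markers at 1 UQRPKM or more, 2 (33.3%) were called higher and 0 lower in CM against IM, beside 8.38% and 10.4% of all genes. In CMT against CM, 2 (33.3%) were lower and 0 higher, beside 9.97% and 9.53%. In both comparisons these were EMR1 and LOC100520753, which the study gives as CD68. They had 45.6, 93.6 and 30.6 UQRPKM and 17.2, 42.9 and 22.2 UQRPKM, respectively. T cell markers, led by CD2 and CD8A, summed to 354, 323 and 371, and those of the adrenal cortex, led by HSD3B1 and STAR, to 366, 620 and 399. Of the 6 T cell markers, 1 (16.7%) was called higher and 1 (16.7%) lower in CMT against IM, beside 8.81% and 11.9%. Of 3 adrenal markers at 1 UQRPKM or more, 1 (33.3%) was lower and 0 higher there. Markers of B cells and lymph node, led by CCL21 and CR2, summed to 362, 297 and 514, of which CCL21 held 275, 220 and 417. Of these 6 markers, 2 (33.3%) were called higher and 1 (16.7%) lower in CMT against IM, beside 8.81% and 11.9% of all genes. Their median log2 ratio there was 0.04. In CMT against CM, 4 (66.7%) were higher and 2 (33.3%) lower, beside 9.53% and 9.97%. All 5 kidney markers were at 0. The adipocyte markers summed to 122559, 116714 and 99367, with PLIN1, the coat protein of lipid droplets, at 18397, 18587 and 12504. Of these 6 markers, 1 (16.7%) was called higher and 0 lower in CM against IM, beside 8.38% and 10.4% of all genes. In CMT against CM, 1 (16.7%) was lower and 0 higher, beside 9.97% and 9.53%. Both calls were of LEP, the leptin gene, at 167, 502 and 156 UQRPKM. PPARG stood at 1454, 1745 and 1704, and 0 of the 6 were called in CMT against IM. Fewer cells of a type and less RNA per cell cannot be told apart in pooled tissue, and the part of blood, muscle or other cells in the ratios of the members was not tested.

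**Figure D4:**
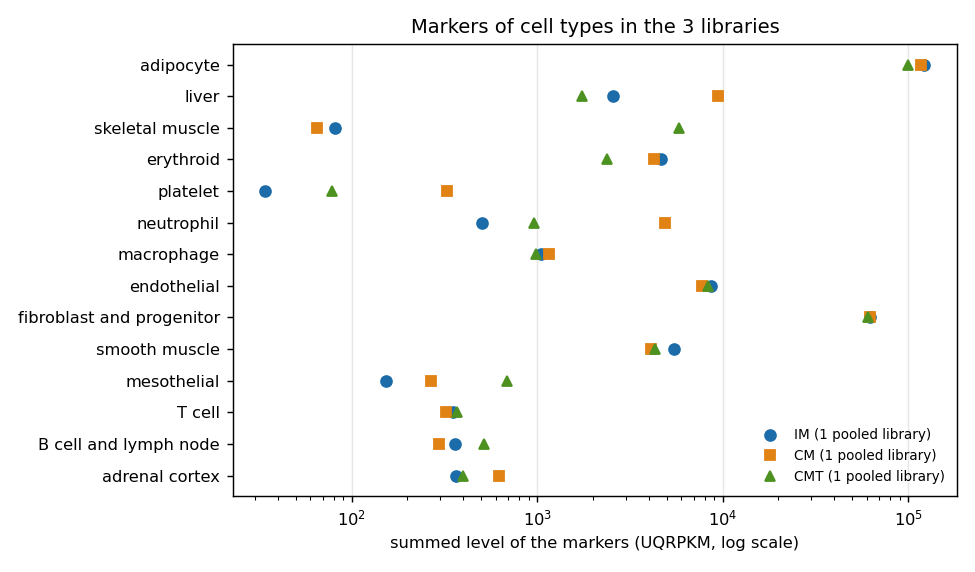
Summed UQRPKM (log scale) of the markers of 14 cell types or tissues in the IM, CM and CMT libraries, 1 pooled library each and no error bars because the sums have no replicates. The sums of skeletal muscle and mesothelial markers are highest in CMT, those of neutrophil, platelet and liver markers in CM, and erythroid markers are lowest in CMT at 2385.

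Mitochondrial and ribosomal RNA were also counted. The 13 mitochondrially encoded genes took 5.23%, 7.97% and 6.21% of the recovered reads, and genes classed as rRNA took 3.03%, 2.37% and 2.24%. The rRNA share thus had the order IM, CM, CMT of JUN, JUNB, EGR1, IER2 and DUSP1, while the mitochondrial share was highest in CM and lowest in IM. Their part in the ratios was not tested.

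The genes whose course over the 3 libraries was most like the median course of the members were sought among 5237 mRNA genes that reached 100 UQRPKM in every library, by the distance between centred log2 values. Outside all lists, the 5 nearest were IRG6, CMPK2, AKR1CL1, ISG12(A) and GPIHBP1, at distances of 0.04 to 0.14. IRG6, CMPK2 and ISG12(A) are interferon-induced genes. IRG6 had 331, 269 and 159 UQRPKM and CMPK2 205, 168 and 101. GPIHBP1, which carries lipoprotein lipase across the capillary wall, had 3398, 2865 and 1798, and AKR1CL1, an aldo-keto reductase, 1454, 1167 and 604. Among genes of the lists, CYR61, HBB and KLF4 were nearest. The likeness rests on 3 libraries. Of the members with that level, DUSP1 was at 0.10, JUN at 0.27, EGR1 at 0.36, FOS at 0.61 and MYC at 0.93, and 969 genes lay at or within the distance of FOS.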

How the data were processed

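Per the labels and the study's methods, total RNA of each group was pooled, sequenced as single-end Ion Proton reads, filtered and mapped to the Sscrofa10.2 assembly with MapSplice, and the authors deposited UQRPKM values, a form of RPKM scaled by the library's upper quartile. The counting tool and gene annotation are not given in the sources used here, and strand and multi-mapping rules are unknown.

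Upper quartiles of 149, 142 and 146 for IM, CM and CMT were read from the commonest ratios between libraries. Lengths of up to 120000 bases were tried per gene, and the smallest one giving whole reads in every library was taken. All 20838 genes above 0 gave whole reads, within a relative error of 7.65e-09. Reads are underestimated where the counts of a gene have a common divisor. Recovery, intervals and calls were tested on simulated data.

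Ratios are log2 UQRPKM without a pseudocount, with exact Clopper-Pearson 95% intervals of the share of reads. With 1 library per group no p-value was computed. Genes were matched by symbol, then by RefSeq (Sscrofa11.1) synonym or gene ID. No coordinates are given, because the builds differ, and no sequences were at hand. Named genes were the members. From each other list they were up to 6 genes with at least 30 reads called in 2 or more comparisons plus the highest, the 2 highest markers per list, and the 5 nearest courses. The kidney markers, all at 0, are not named, and 1 item is not reported here. ZFP36 and its relatives, KRT1, LOC100737949, MYCN, TSC22D3, FKBP5, PF4, GP9, CXCR2, CSF3R, EMR1, LOC100520753, LEP, PPARG, PDGFRA, COL1A1 and the HSP70 genes listed at 0 were added after their values were seen. The members and lists were chosen with earlier results of these data known. Python 3.11.15, numpy 2.4.6, pandas 2.3.3, SciPy 1.17.1 and matplotlib 3.10.9 were used.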

Additional observations from a re-analysis of the deposited data

How the results depend on the processing

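The counts called at a fold of 1.5 were the same with scaling by total mRNA reads, by the median of ratios or by genes of similar length. They were also the same with pseudocounts of 1 and 10, a minimum of 30 reads, no minimum value, and intervals that leave out 0. The 135 recomputed ratios of single members neither turned their sign nor crossed the fold of 1.5. Scaling by total mRNA reads shifted every ratio in CMT against IM by 0.11, the only scaling shift above 0.1, and put the median of the members at -1.02 and DUSP1 at -0.99. A fold of 2 left 1 gene lower when CM was set against IM and 2 when CMT was set against CM. The counts at a fold of 2 under other scalings and pseudocounts were added after the data were seen, and gave 5 to 7 genes lower in CMT against IM. Without each member in turn, the median stayed between -1.15 and -1.12 in CMT against IM and between -0.86 and -0.76 in CMT against CM. No library could be left out, since each group has 1. Counting error limits ATF3 and IER3 most, while differences among the pooled pigs cannot be estimated at any depth.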

Other observations

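Gene length was also set beside the ratios, since the 9 members have recovered lengths of 1020 to 3165 bases. In CMT against IM the median log2 ratio was -0.02 for the 2552 genes of up to 1000 bases, -0.07 for the 4369 genes above that and up to 2000 bases, -0.09 for the 4967 genes up to 4000 bases and -0.10 for the 2263 longer genes. The share of genes lower by a fold of 1.5 was 15.1%, 13.7%, 11.0% and 7.11% in these 4 length classes, so that shorter genes passed that fold more often. The part of gene length in the ratios of the members was not tested.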
